A study of Mus musculus with 12 samples.

Results

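The genes described are 30 mouse genes that make cholesterol, sense it, store it as ester and move it out of the cell. They were given as a list of symbols, and all 30 were found among the 55487 genes of the count table. RNA was sequenced in bulk from cardiac macrophages 2 days after the heart had been made ischemic and reperfused, in 12 libraries of about 1000 sorted cells each. CD45.1+ (recruited) and CD45.2+ (resident) macrophages were sorted from the remote zone (RZ) and the infarct zone (IZ) of the heart, with 3 libraries for each of the 4 groups, through a gate for live lineage-negative cells with CD11b, F4/80 and CD64. All cells came from bone marrow chimeras made without irradiation. The hosts were CD45.2 mice carrying Mx1Cre and Myb flox/flox, which received 4 injections of polyI:C to delete Myb and empty the marrow. They were then given marrow of congenic C57BL/6 CD45.1 mice, and injury followed 4 weeks later. Mice of the study were 10 to 16 weeks old. CD45.2+ cells therefore carry the host's Mx1Cre and Myb alleles and met polyI:C, whereas CD45.1+ cells carry neither allele and arrived afterwards, so that origin, genotype and exposure cannot be told apart. Chimerism was high and not complete, and host cells that also reached the heart from blood would be sorted as CD45.2+. The methods give 3 mice, so libraries of different groups may share an animal. No label ties a library to one, and p-values measure the spread between these libraries.

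Cholesterol is built from acetyl-CoA through mevalonate, farnesyl diphosphate and squalene, and lanosterol is trimmed to cholesterol in the last steps. When sterol is scarce, the escort protein Scap carries the transcription factor SREBP2 to the Golgi, where it is cut and then switches on most genes of the route, while Insig proteins hold it back when sterol is plentiful. Macrophages that have taken up dead cells and lipoproteins esterify the surplus, release it again from the ester and export it to lipoproteins, and oxysterols switch on the export genes through the liver X receptors (LXR).

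The reference sequence upstream of 5 members is shown because the values below turn on them. Hmgcs1 and Mvd are SREBP2 targets of the early route that were lower in resident macrophages, Hmgcs1 in the RZ only by the test, and Lss is an enzyme of the later route that was higher. Soat1 and Nceh1 form the ester cycle. The windows are RefSeq sequence of GRCm38.p6, from 250 bases before the start of transcription to the start. They end at the first base of the gene, as deposited with the counts, if that comes first. They are chr13:119690101-119690350 (+) for Hmgcs1, chr8:122443423-122443672 (-) for Mvd, chr10:76531355-76531587 (+) for Lss, chr1:156474332-156474578 (-) for Soat1 and chr3:27182754-27182964 (+) for Nceh1. Capitals mark CCAAT boxes, which read CCAAT or on the other strand ATTGG, and in Hmgcs1 also a sterol regulatory element of the letters TCACNCCAC.
Hmgcs1: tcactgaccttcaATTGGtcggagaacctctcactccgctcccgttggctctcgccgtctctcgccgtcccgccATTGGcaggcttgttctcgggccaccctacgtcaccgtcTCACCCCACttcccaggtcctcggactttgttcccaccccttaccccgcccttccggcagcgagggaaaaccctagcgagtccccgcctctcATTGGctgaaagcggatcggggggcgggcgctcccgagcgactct
Mvd: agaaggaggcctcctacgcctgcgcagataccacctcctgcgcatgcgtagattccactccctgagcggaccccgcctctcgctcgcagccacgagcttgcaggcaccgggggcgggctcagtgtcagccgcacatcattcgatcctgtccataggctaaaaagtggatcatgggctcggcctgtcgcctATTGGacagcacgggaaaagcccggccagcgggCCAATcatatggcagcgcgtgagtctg
Lss: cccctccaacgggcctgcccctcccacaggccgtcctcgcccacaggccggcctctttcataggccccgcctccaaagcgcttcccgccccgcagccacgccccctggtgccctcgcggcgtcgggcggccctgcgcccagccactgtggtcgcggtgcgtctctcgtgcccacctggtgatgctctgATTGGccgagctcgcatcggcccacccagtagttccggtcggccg
Soat1: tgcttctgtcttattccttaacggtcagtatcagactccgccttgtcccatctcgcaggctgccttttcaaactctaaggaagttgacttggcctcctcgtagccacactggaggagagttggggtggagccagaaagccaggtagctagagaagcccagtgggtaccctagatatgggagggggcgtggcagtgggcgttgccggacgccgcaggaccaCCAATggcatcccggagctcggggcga
Nceh1: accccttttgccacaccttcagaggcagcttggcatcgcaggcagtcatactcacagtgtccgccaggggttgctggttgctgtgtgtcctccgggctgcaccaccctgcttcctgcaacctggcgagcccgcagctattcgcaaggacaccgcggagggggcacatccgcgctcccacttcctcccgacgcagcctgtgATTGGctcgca
Of the members, 24 had at least 1 such entry, with 34 entries in all, and the motifs were searched on both strands in the 250 bases before each start. The sterol regulatory element was found in 346 of 32851 promoters (1.05%) and, among members, only in that of Hmgcs1, where it began 137 bases before the start. A CCAAT box lay in 33.8% of all promoters and in 20 of the 34 entries of members (58.8%), which belonged to 19 members. A GC box, searched as GGGCGG, lay in 32.7% of all promoters and in 22 of the 34 entries (64.7%). These are matches of letters in a window, not measured binding. Sites that differ from the letters by a base were not counted, so a member without a match may still hold such an element. The 6 members with no entry were Abcg1, Fdft1, Fdps, Scarb1, Sqle and Stard4.

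Totals lay between 33253340 and 63435529 counts per library, and every member had counts in every library. Libraries S104 to S107, 1 of each group, lay apart from the other 8 on the second principal component of all genes, which held 15.02% of the variance. The first component, with 54.3%, separated the populations. Ptprc, Itgam, Adgre1 and Fcgr1 encode proteins of the sort, and Cd68 and Csf1r are macrophage genes whose proteins were not sorted on. Together the 6 summed to between 6792 and 9251 CPM (read counts relative to the library total, with TMM factors) in the 12 libraries. Of these 6, Adgre1 and Csf1r were higher and Itgam and Fcgr1 lower in CD45.2+ macrophages in both zones, by -1.30 to 1.07 on the log2 scale in the RZ and -1.13 to 0.70 in the IZ, and Csf1r was lower in the IZ than in the RZ of CD45.2+ cells (-0.66). Levels per gene are given in CPM, and gene positions on GRCm38.p6. Each fold change comes from edgeR's quasi-likelihood test over 18773 genes with Benjamini-Hochberg adjustment, is given on the log2 scale as CD45.2 over CD45.1 or IZ over RZ, and passed if the adjusted p was under 0.05. Where 2 sorted populations differ, fewer cells of a type and less RNA per cell cannot be told apart.

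Resident macrophages had lower levels of the ester cycle enzymes Soat1 and Nceh1 and a higher level of the oxysterol enzyme Ch25h than recruited ones, in both zones, while the enzymes of synthesis split in direction. Of the genes that handle finished cholesterol 6 of 8 passed in the RZ and 5 of 8 in the IZ, and of those that make it 4 and 3 of 16, a difference between the lists that was not tested. In the RZ 5 members were higher in CD45.2+ macrophages and 7 lower, where 16.2% and 15.8% of all genes tested were higher and lower. In the IZ 4 were higher and 5 lower, beside 12% and 7.56% of all genes, and on total counts 5 were higher and 3 lower, with 78.4% rather than 61.3% of the calls over all genes higher. In all, 12 of 30 members (40.0%) passed in the RZ and 9 (30.0%) in the IZ, against 32.0% and 19.5% of all genes. The median log2 fold change of the 30 members was -0.28 and -0.19, beside 0.04 and 0.04 over all genes. Without library S106 the members that were lower in the RZ numbered 11, and all genes lower there 3802 rather than 2973. Members that were higher in the IZ numbered 2 without S113 or without S115, and those that were lower numbered 3 without S109, S111 or S115. All genes higher there then numbered 1461 and 1451 rather than 2247, and all genes lower 857, 764 and 722 rather than 1419.

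Across zones, 8 members passed in both and none passed in opposite directions. Ch25h, Insig2, Lss and Mylip were higher in CD45.2+ macrophages in both zones, and Mvd, Nceh1, Scarb1 and Soat1 were lower. Abcg1, Acat2, Hmgcs1 and Srebf2 passed in the RZ alone and Cyp51 in the IZ alone, and for none of these did the test of the difference between the zones pass. The remaining 17 passed in no comparison. Which zone a member passed in depended on the fit. By DESeq2 and limma-voom, Acat2 (adjusted p = 0.0254 and 0.00913) and Abcg1 (0.0241 and 0.0171) passed in the IZ also. By limma-voom, Srebf2 passed in the IZ (0.0467) and not in the RZ, and Cyp51 passed in the RZ also (0.0469). With the side of the second component as a covariate, Acat2 and Abcg1 passed in the IZ also (adjusted p = 0.0224 and 0.0435) and Cyp51 in the RZ also (0.0438), and of the 17, Fdps, Sqle and Msmo1 passed in the RZ, Dhcr7 in the IZ and Srebf1 in both. Of the 8 members that passed in both zones, 7 had the larger change in the RZ, with Ch25h the exception. Changes of all genes tested were also larger in the RZ, with a median absolute log2 fold change of 0.51 against 0.40 in the IZ.

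**Figure D1:**
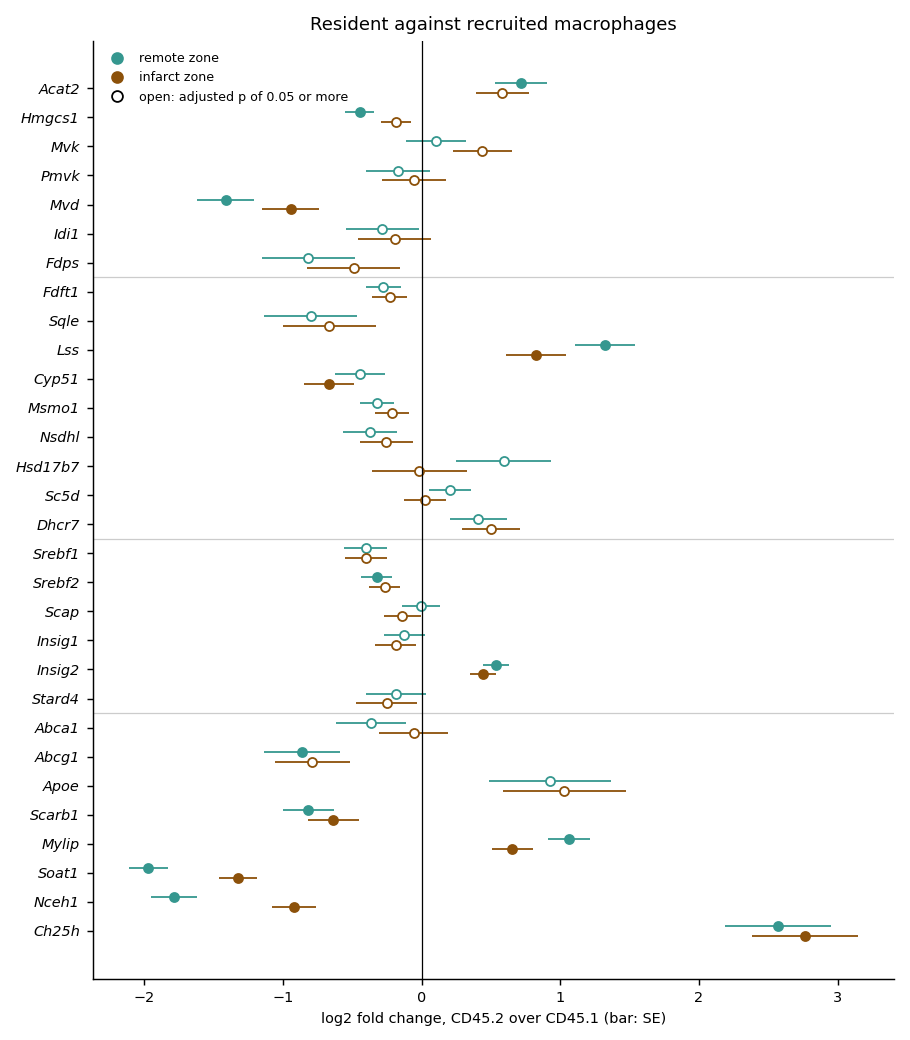
Log2 fold change of the 30 members, CD45.2 over CD45.1, in the RZ and the infarct zone, with the SE as a bar and genes ordered by role from the first step of synthesis to efflux. Filled points passed an adjusted p of 0.05. Ch25h lies farthest to the right at 2.57 and 2.76, and Soat1 and Nceh1 farthest to the left at -1.97 and -1.79 in the RZ.

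Among the 8 genes of efflux, storage and oxysterols, 2 were higher and 4 lower in CD45.2+ macrophages in the RZ, and 2 were higher and 3 lower in the IZ. These are 75.0% and 62.5%, beside 32.0% and 19.5% of all genes. Soat1 (ENSMUSG00000026600, chromosome 1 of GRCm38.p6, 156424525 to 156474331, minus strand) encodes the enzyme that esterifies cholesterol for storage in droplets. In the RZ it was at 367, 397 and 363 CPM in recruited and at 116, 85.9 and 85.4 CPM in resident macrophages. Its IZ levels were 398, 402 and 457 against 181, 153 and 169 CPM. Every CD45.2+ library lay below every CD45.1+ library in both zones. The log2 fold change was -1.97 (SE 0.14, adjusted p = 2.49e-06, edgeR) in the RZ and -1.32 (SE 0.14, adjusted p = 6.08e-05) in the IZ, a level 3.92-fold and 2.50-fold lower.

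Nceh1 (ENSMUSG00000027698, chromosome 3, 27182965 to 27284608, plus strand) encodes a hydrolase that frees cholesterol from its ester, the reverse of the step of Soat1. It was at 221, 241 and 229 CPM in recruited and at 73.7, 65.7 and 60.5 CPM in resident RZ macrophages. For the IZ the levels were 266, 265 and 361 against 193, 134 and 146 CPM. The populations did not overlap in either zone, and both enzymes of the ester cycle were thus lower in resident cells. Nceh1 was 3.45-fold lower in the remote (log2 fold change -1.79, SE 0.16, adjusted p = 1.5e-05, edgeR) and 1.89-fold lower in the IZ (-0.92, SE 0.16, adjusted p = 0.00223).

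Ch25h (ENSMUSG00000050370, chromosome 19, 34473778 to 34475164, minus strand) makes 25-hydroxycholesterol, an oxysterol that activates LXR and restrains SREBP processing. It was at 18.0, 16.4 and 7.08 CPM in recruited and at 97.3, 78.7 and 70.4 CPM in resident RZ macrophages. Levels in the IZ were 39.3, 20.2 and 19.4 against 229.7, 185 and 121 CPM, again without overlap. This was 5.94-fold higher in the remote (log2 fold change 2.57, SE 0.38, adjusted p = 0.000448, edgeR) and 6.78-fold higher in the IZ (2.76, SE 0.38, adjusted p = 0.000494). Exons of Ch25h and of the unnamed transcript Gm26902 share 159 of the 1387 exon bases of Ch25h, and Gm26902 differed likewise, by 2.60 and 2.78. Reads of these overlapping genes cannot be told apart there.

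Mylip (ENSMUSG00000038175, chromosome 13, 45389742 to 45412022, plus strand) encodes an E3 ligase that LXR switches on and that sends lipoprotein receptors for degradation. Its levels in the RZ were 15.4, 19.5 and 19.7 CPM in recruited and 38.5, 39.9 and 35.4 CPM in resident macrophages. IZ libraries stood at 16.4, 15.8 and 19.9 against 23.5, 27.4 and 31.1 CPM. All CD45.2+ libraries lay above all CD45.1+ libraries, 2.09-fold in the remote (log2 fold change 1.06, SE 0.15, adjusted p = 0.000295, edgeR) and 1.57-fold in the IZ (0.65, SE 0.15, adjusted p = 0.01). Without S115 the adjusted p in the IZ was 0.0514.

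Scarb1 (ENSMUSG00000037936, chromosome 5, 125277087 to 125341094, minus strand) encodes the receptor that exchanges cholesterol with high-density lipoprotein. Its levels were 111.6, 131 and 133 CPM in recruited and 96.7, 55.1 and 61.4 CPM in resident RZ macrophages. IZ levels came to 114.9, 143 and 139 against 81.4, 89.4 and 84.9 CPM. The groups did not overlap, but S106, at 96.7 CPM, stood nearer to the CD45.1+ libraries than to its own group. Log2 fold changes came to -0.82 (SE 0.19, adjusted p = 0.00609, edgeR) and -0.64 (SE 0.18, adjusted p = 0.032). The call in the IZ was lost without S107, S109, S111, S113 or S115 and on total counts, at an adjusted p of up to 0.106.

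Of the exporters 1 passed, in the RZ. Abcg1, which moves cholesterol to high-density lipoprotein, was at 59.3 ± 14.7 CPM in recruited and 32.6 ± 10.5 CPM in resident RZ macrophages (SD, n = 3), which is -0.86 on the log2 scale (SE 0.27, adjusted p = 0.0313, edgeR). This call was lost without S110, S112 or S114, at an adjusted p of up to 0.109. In the IZ Abcg1 had -0.79 (adjusted p = 0.064). Abca1, which loads cholesterol on apolipoproteins, did not pass. It was at 298 ± 89.7 CPM in recruited and 231 ± 37.7 CPM in resident RZ macrophages, and at 188 ± 57.6 and 181 ± 27.8 CPM in the IZ.

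Apoe (ENSMUSG00000002985, chromosome 7, 19696109 to 19699188, minus strand), the lipoprotein that macrophages secrete with exported cholesterol, was the most abundant member per length in every group, at mean levels between 2388 and 9029 RPKM (CPM per kilobase of exon). Its CPM in the RZ were 6603, 7467 and 16428 in CD45.1+ and 12659, 20818 and 24436 in CD45.2+ macrophages. Those of the IZ were 5081, 2943 and 7293 against 6465, 10217 and 14589. The populations overlapped in both zones, and the log2 fold changes of 0.93 (SE 0.44) and 1.03 (SE 0.44) did not pass (adjusted p = 0.129 and 0.127, edgeR). Without S112 the remote value was 1.45 and passed, and by limma-voom it was 1.31 (adjusted p = 0.0415). The IZ value passed by DESeq2 at 1.03 (adjusted p = 0.0486) and by limma-voom at 1.19 (adjusted p = 0.0208). After Apoe the order per length differed between populations. Nceh1 and Soat1 followed in CD45.1+ macrophages, at 43.8 and 38.4 RPKM in the RZ, and Ch25h followed in CD45.2+ macrophages, at 59.2 RPKM.

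**Figure D2:**
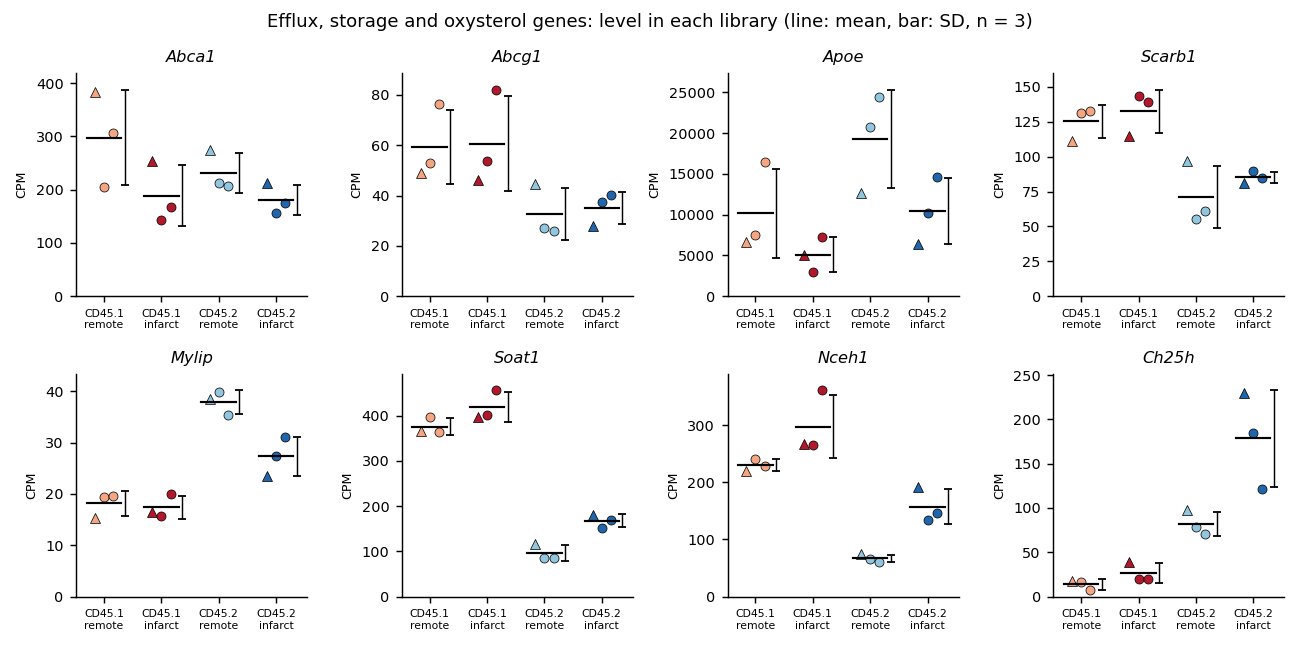
CPM of the 8 genes of efflux, storage and oxysterols in each library, by group, on linear axes that start at 0. Lines are group means and bars the SD (n = 3), and triangles mark S104 to S107. Soat1 and Nceh1 are lower and Ch25h and Mylip higher in every CD45.2+ library, whereas Abca1 and Apoe overlap between populations.

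The 16 enzymes of synthesis did not move as 1 block. In the RZ 2 were higher and 2 lower in CD45.2+ macrophages, and in the IZ 1 was higher and 2 were lower, with medians of -0.28 and -0.19. These are 25.0% and 18.8% of the 16, no more than the 32.0% and 19.5% of all genes that passed. Limma-voom called 2 higher and 7 lower in the RZ, and DESeq2 2 and 4. Mvd (ENSMUSG00000006517, chromosome 8, 122433601 to 122443422, minus strand), which turns mevalonate diphosphate into the first isoprenoid, was at 29.5, 29.0 and 27.1 CPM in recruited and at 14.7, 8.26 and 9.24 CPM in resident RZ macrophages. Its IZ levels ran at 29.6, 30.8 and 25.6 against 17.6, 14.8 and 12.4 CPM. No CD45.2+ library reached the level of a CD45.1+ library. Mvd was 2.66-fold lower in the remote (log2 fold change -1.41, SE 0.21, adjusted p = 0.000408, edgeR) and 1.93-fold lower in the IZ (-0.94, SE 0.20, adjusted p = 0.00778).

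Lss (ENSMUSG00000033105, chromosome 10, 76531588 to 76557138, plus strand), which closes squalene epoxide into lanosterol, went the other way. It was at 6.90, 5.0 and 4.14 CPM in recruited and 13.9, 14.0 and 12.2 CPM in resident RZ macrophages, and at 6.66, 7.97 and 5.01 against 10.2, 12.4 and 12.1 CPM in the IZ. Again the populations did not overlap. Lss was 2.50-fold higher in the remote (log2 fold change 1.32, SE 0.22, adjusted p = 0.000897, edgeR) and 1.77-fold higher in the IZ (0.82, SE 0.22, adjusted p = 0.0208). The second of these calls was lost without S105, S111, S113 or S115, at an adjusted p of up to 0.0971. Lss shares 381 of 10787 exon bases with 4930483K19Rik, which had 764 counts over the 12 libraries beside 5571 for Lss.

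Hmgcs1 (ENSMUSG00000093930, chromosome 13, 119690379 to 119708260, plus strand), which makes hydroxymethylglutaryl-CoA and whose promoter holds the sterol regulatory element shown above, had a narrow spread. It was at 32.2 ± 1.99 CPM in recruited and 23.6 ± 2.44 CPM in resident RZ macrophages (SD, n = 3), a log2 difference of -0.45 (SE 0.11, adjusted p = 0.00796, edgeR). The IZ means were 33.5 ± 1.41 and 29.4 ± 1.10 CPM, with -0.19 (adjusted p = 0.245). Its exons share 557 of 4594 bases with Gm48342. Acat2, the cytosolic thiolase of the first step, was at 7.43 ± 0.809 against 12.2 ± 2.53 CPM in the RZ, with 0.72 (SE 0.19, adjusted p = 0.0142), and had 0.58 in the IZ (adjusted p = 0.0528). The call of Acat2 was lost without S112 or S114 and without S104 to S107, at an adjusted p of up to 0.0641.

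Cyp51 (ENSMUSG00000001467, chromosome 5, 4081145 to 4104746, minus strand), the demethylase of lanosterol, was at 25.6, 19.3 and 16.3 CPM in recruited and 17.2, 14.3 and 13.5 CPM in resident RZ macrophages, where it overlapped and did not pass (log2 fold change -0.45, adjusted p = 0.0782, edgeR). The IZ libraries had 30.1, 38.3 and 29.1 against 21.9, 21.1 and 18.3 CPM without overlap, with -0.67 (SE 0.18, adjusted p = 0.0231). The call was lost without S109, S111 or S115 and on total counts, at an adjusted p of up to 0.0999. Cyp51 shares 166 of 4415 exon bases with Akap9.

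The other 11 enzymes passed in neither zone by edgeR on all libraries. Of the mevalonate arm, the kinases Mvk and Pmvk had log2 fold changes of 0.10 and -0.17 in the RZ and 0.44 and -0.06 in the IZ. Idi1, the isomerase of the isoprenoid unit, had -0.28 and -0.19, and Fdps, which makes farnesyl diphosphate, had -0.82 and -0.49. Of the arm from squalene, Sqle, the squalene epoxidase, had -0.80 and -0.66, Msmo1, which removes methyl groups, had -0.32 and -0.22, and Nsdhl, of the same demethylating complex, had -0.37 and -0.25. Hsd17b7, a sterol ketone reductase, had 0.59 and -0.02. The late enzymes Sc5d and Dhcr7 had 0.21 and 0.41 in the RZ and 0.02 and 0.50 in the IZ. Fdft1, the squalene synthase, had -0.28 and -0.23, but 774 of its 4116 exon bases are shared with the cathepsin gene Ctsb, which had 5848857 counts beside 36311 for Fdft1, so that its level is uncertain. Fdps shares 1124 of 4208 exon bases with Gm43738 and is uncertain likewise.

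Of the 4 libraries that lay apart on the second component, S104, S106 and S107 also stood out among these enzymes, and S105 did not. How often a library was highest in its group over all genes was not counted. S104 held the highest value of its group for 13 of the 16 enzymes, S106 for 13 and S107 for 11, whereas in the CD45.1+ infarct group S109 did so for 10 and S105 for 4. Summed over the 16 enzymes, S106 was at 309 CPM and the other CD45.2+ remote libraries at 246 and 229.6 CPM. The CD45.1+ remote libraries summed to 349.9 CPM in S104, 299.6 CPM in S108 and 293 CPM in S112. Without S106, Fdps had -1.38 and Sqle -1.27 in the RZ and passed, Cyp51 passed at -0.56, and Msmo1 at -0.45. With the side of the second component as a covariate, 12 members were lower in the RZ, beside 3868 of all genes. Without S104 to S107, 4 members were higher and 9 lower in the RZ, and 4 and 7 in the IZ. All genes then numbered 3306 and 3309 in the RZ, and 2385 and 1712 in the IZ.

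**Figure D3:**
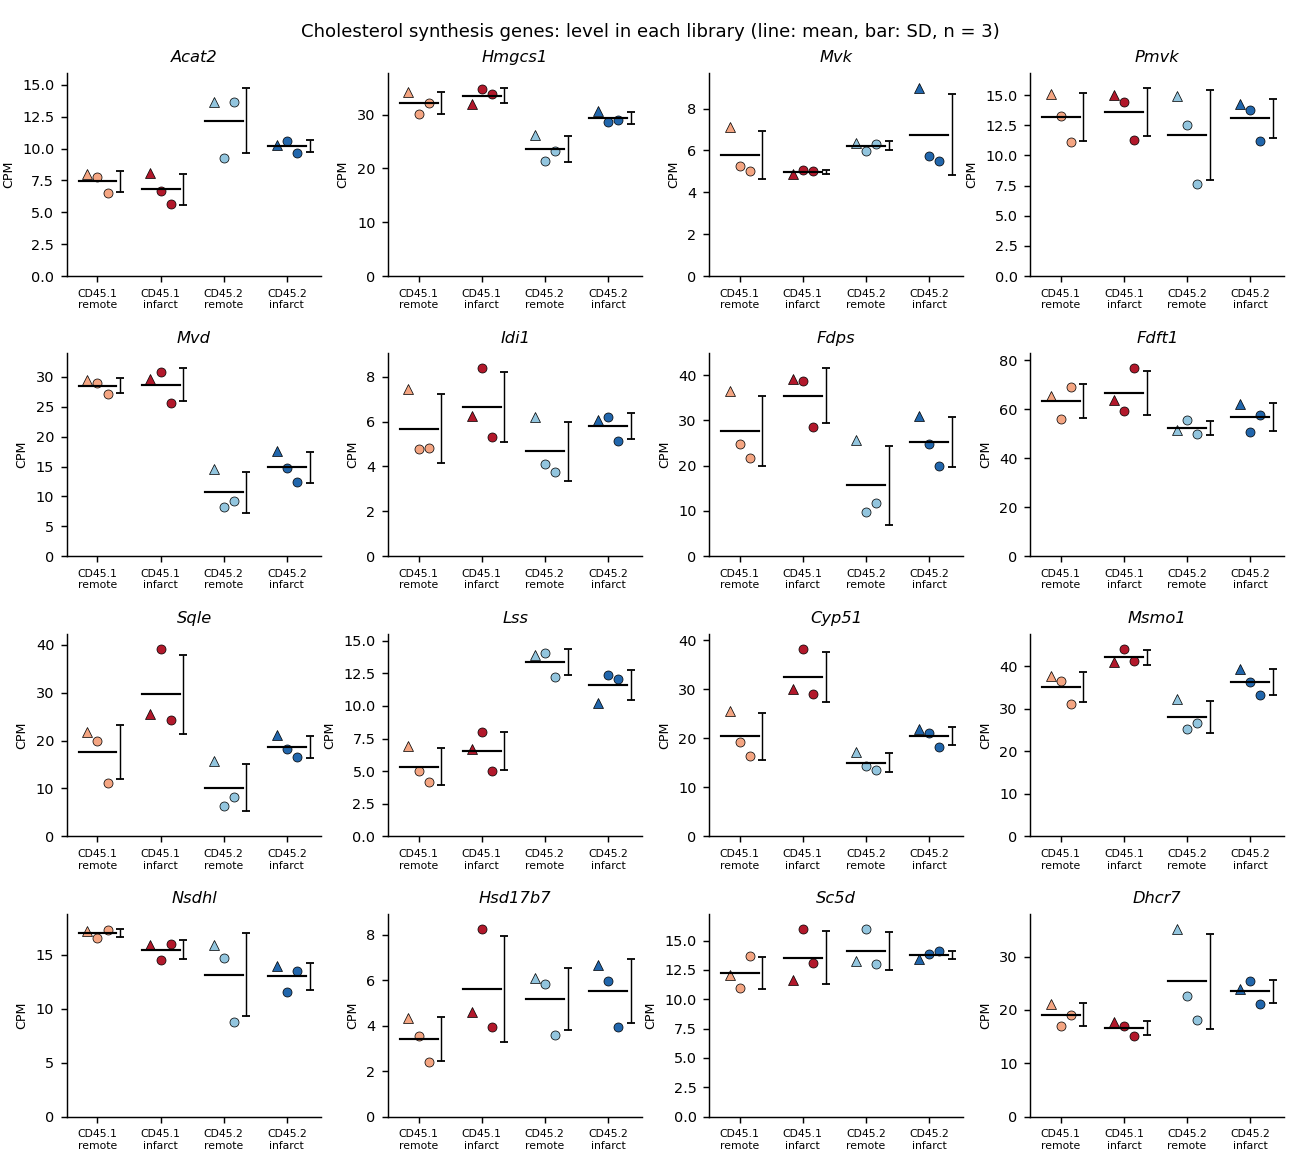
CPM of the 16 enzymes of cholesterol synthesis in each library, by group, on linear axes that start at 0. Lines are group means and bars the SD (n = 3), and triangles mark S104 to S107. Mvd is lower and Lss higher in every CD45.2+ library, and in Fdps and Sqle the CD45.2+ remote triangle (S106) stands above its group.

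Of the 6 genes of sterol sensing and transport, 1 was higher and 1 lower in the RZ, and 1 was higher and 0 lower in the IZ. These are 33.3% and 16.7%, beside 32.0% and 19.5% of all genes. In the IZ 3 of the 6 had an unadjusted p under 0.05, DESeq2 called 1 higher and 0 lower, and limma-voom 1 and 2. Insig2 (ENSMUSG00000003721, chromosome 1, 121304353 to 121332589, minus strand), which retains the SREBP and Scap complex in the endoplasmic reticulum, was at 27.5, 30.0 and 29.3 CPM in recruited and 42.0, 42.9 and 40.8 CPM in resident RZ macrophages. IZ libraries had 29.3, 32.5 and 28.3 against 38.6, 43.0 and 40.9 CPM. Insig2 had the smallest change of the 8 members that passed in both zones, and libraries of a group lay close together, with no overlap between populations. Log2 fold changes came to 0.54 (SE 0.10, adjusted p = 0.0014, edgeR) and 0.44 (SE 0.10, adjusted p = 0.00738), and without S113 the adjusted p in the IZ was 0.0577. Its relative Insig1, itself an SREBP target, had -0.12 and -0.19 and did not pass.

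Srebf2, the gene of SREBP2, was at 95.7 ± 7.03 CPM in recruited and 76.5 ± 6.63 CPM in resident RZ macrophages (SD, n = 3). Its log2 fold change of -0.32 (SE 0.11, adjusted p = 0.0467, edgeR) lay close to the threshold and missed it under 17 of 22 alternatives, among them each other scaling. In the IZ it had -0.27 (adjusted p = 0.122). Srebf1, whose SREBP-1 product turns to fatty acid synthesis, had -0.40 and -0.40 (SE 0.15 and 0.15, adjusted p = 0.0637 and 0.0906). It passed in both zones by limma-voom (adjusted p = 0.00579 and 0.00417), with the covariate (0.0142 and 0.0235), without S104 to S107 (0.00685 and 0.0178) and without S106 (0.00399 and 0.0259), with RZ values of up to -0.61, and in the RZ by DESeq2 (0.0479). Scap had -0.01 and -0.14, and Stard4, a carrier of sterol between membranes, had -0.18 and -0.25. Srebf1 and Scap share exon bases with neighbours, 175 of 5634 and 985 of 7443.

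**Figure D4:**
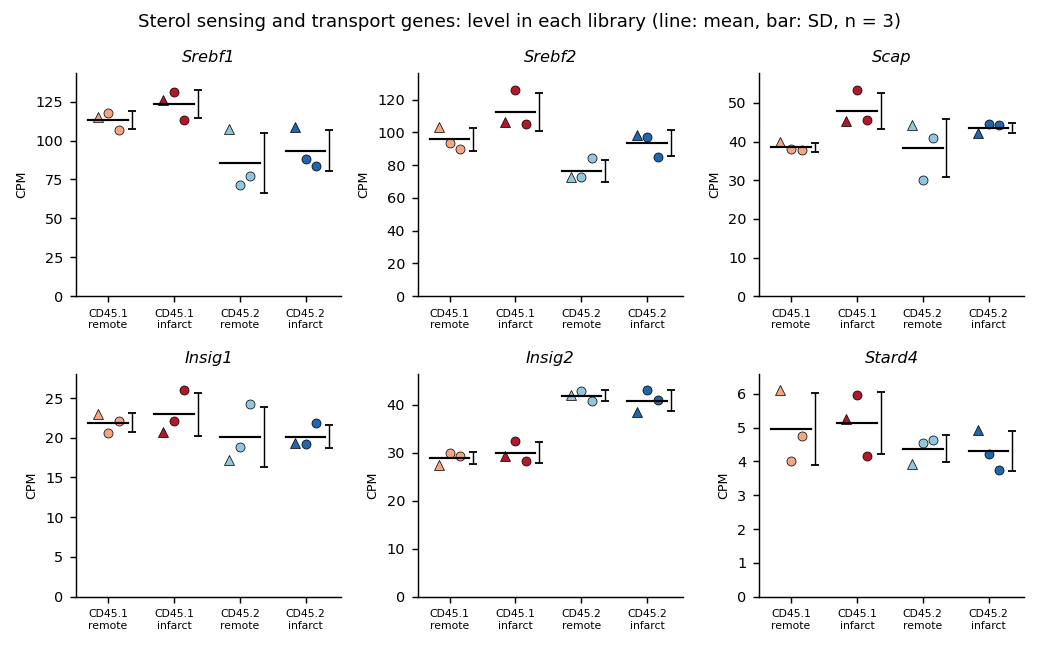
CPM of the 6 genes of sterol sensing and transport in each library, by group, on linear axes that start at 0. Lines are group means and bars the SD (n = 3), and triangles mark S104 to S107. Insig2 is higher in every CD45.2+ library, and Insig1 and Stard4 overlap between populations in both zones.

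Fewer members passed between zones than between populations. In CD45.1+ macrophages 0 of 30 members passed in either direction by edgeR, as did 0.0% of all genes up and 0.0% down. At an unadjusted p under 0.05 there were 7 members, limma-voom called 0, and DESeq2 called 1, Cyp51 at 0.67. In CD45.2+ macrophages 2 members were higher in the IZ and 0 lower, where 1.46% of all genes were higher and 0.293% lower, and 10 members had an unadjusted p under 0.05. DESeq2 called 3 higher and 1 lower there, and limma-voom 2 and 0. Without S106 the members higher in the IZ numbered 7, without S104 to S107 they numbered 4, and without S107, S110 or S114 they numbered 1. All genes higher there went from 275 to 862 without S106 and to 334 without S104 to S107. They numbered 155, 116 and 152 without S107, S110 and S114.

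Both members that passed were the enzymes of the ester cycle. Nceh1 was 2.36-fold higher in the infarct than in the RZ of CD45.2+ macrophages (log2 fold change 1.24, SE 0.16, adjusted p = 0.00319, edgeR). Soat1 was 1.75-fold higher (0.81, SE 0.13, adjusted p = 0.0114). From the values above, each infarct library lay above each remote library of CD45.2+ cells for both genes, and all of them stayed below the CD45.1+ libraries. In CD45.1+ macrophages the changes were 0.37 (SE 0.16, adjusted p = 0.608) for Nceh1 and 0.16 (SE 0.13, adjusted p = 0.864) for Soat1. The test of the difference between the populations did not pass for Nceh1 (0.87, SE 0.23, adjusted p = 0.358) or for Soat1 (0.65, SE 0.19, adjusted p = 0.493). The call of Soat1 was lost without S107, S110 or S114 and in a fit of the 6 libraries alone, at an adjusted p of up to 0.102. That of Nceh1 was lost only in the fit of the 6 libraries, at 0.0573. Of the 5 neutrophil genes tested, Mmp8, a neutrophil collagenase, was also higher in the IZ of CD45.2+ cells (log2 fold change 2.27, SE 0.27, adjusted p = 0.00231, edgeR), as 1 gene was by DESeq2 and limma-voom, with a median of 1.24 over the 5 genes. S100a8, S100a9, Cxcr2 and Csf3r did not pass, with log2 fold changes of 1.24, 0.78, 2.12 and -0.04 (adjusted p = 0.618, 0.856, 0.464 and 0.956, edgeR). Ly6g and Ngp were at 0 in the CD45.2+ IZ libraries. The part of neutrophils in the zone change was not tested.

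Over all members, the difference of the zone effects passed for 0 of 30 by edgeR, with 2 at an unadjusted p under 0.05, beside 0.0% of all genes higher and 0.0% lower. Limma-voom called 0 and DESeq2 1, Nceh1 at 0.86. No enzyme of synthesis passed between zones by edgeR in CD45.2+ cells, where 5 had an unadjusted p under 0.05 and both DESeq2 and limma-voom called 0. Without S106 edgeR called 4 of them higher in the IZ, while all genes higher there went from 275 to 862. The 4 were Mvd at 0.77 (adjusted p = 0.0273), Fdps at 1.24 (0.0278), Sqle at 1.35 (0.0337) and Msmo1 at 0.49 (0.0467). Fdps also passed without S104 to S107, at 1.04 (adjusted p = 0.0426). The point estimates of 19 of the 30 members lay above 0 in both populations, a share that was not counted over all genes. In CD45.1+ and CD45.2+ cells 23 and 20 members lay above 0, beside 9303 and 9747 of all 18773 genes. Medians over the members were 0.08 in CD45.1+ and 0.12 in CD45.2+ cells, beside -0.00 and 0.02 over all genes. Largest among the enzymes of synthesis was Sqle, with 0.75 (SE 0.33, adjusted p = 0.624) and 0.89 (SE 0.34, adjusted p = 0.228). Apoe had -0.99 and -0.89 (SE 0.44 each), Abca1 -0.66 and -0.35, and Ch25h 0.93 and 1.12 (SE 0.37 and 0.36), none of which passed by edgeR. In CD45.2+ cells Ch25h passed by DESeq2 at 1.11 (adjusted p = 0.0312) and with the covariate for the second component at 1.10 (adjusted p = 0.0266), as did Mylip, lower at -0.48 by both (adjusted p = 0.0337 and 0.049).

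**Figure D5:**
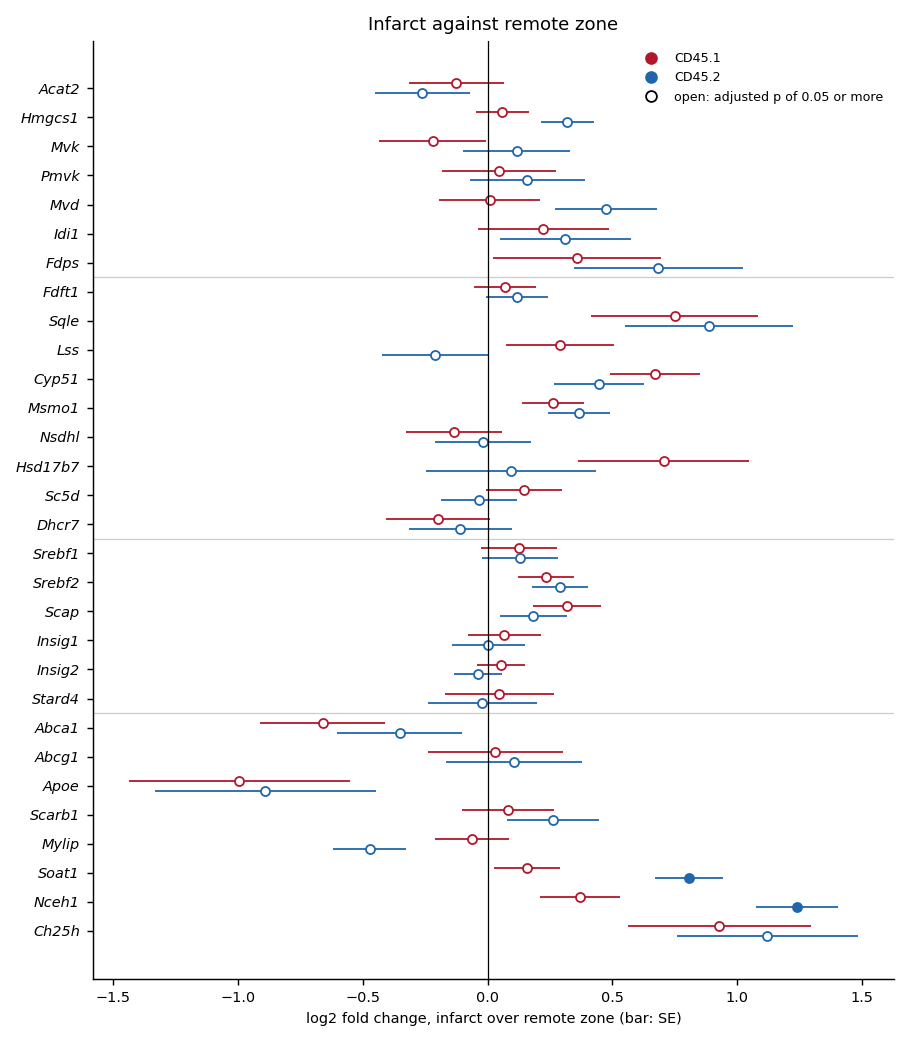
Log2 fold change of the 30 members, infarct over remote zone, in CD45.1+ and CD45.2+ macrophages, with the SE as a bar. Only Soat1 and Nceh1 in CD45.2+ macrophages, at 0.81 and 1.24, are filled, which marks an adjusted p under 0.05.

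Further genes of cholesterol and fatty acid handling were counted from a list of 48, of which 46 were tested. In the RZ 9 were higher in CD45.2+ macrophages and 16 lower, and in the IZ 6 were higher and 10 lower. These are 54.3% and 34.8% of the list, beside 32.0% and 19.5% of all genes. Between zones 2 were higher and 0 lower in CD45.2+ cells, with 16 at an unadjusted p under 0.05, and DESeq2 called 7 and 4 and limma-voom 6 and 1. By contrast 0 passed in CD45.1+ cells by edgeR, with 7 at an unadjusted p under 0.05, 1 by DESeq2 and 0 by limma-voom. Fads1, a desaturase of polyunsaturated fatty acids, was higher in CD45.2+ macrophages by 1.24 in the RZ and 1.45 in the IZ (adjusted p = 4.82e-05 and 3.1e-05, edgeR). Scd2, a desaturase of saturated fatty acids, was lower, with -2.81 and -1.72 (adjusted p = 2.24e-05 and 0.000947). Pltp, the LXR target that transfers phospholipid between lipoproteins, had 2.53 and 2.76 (adjusted p = 2.94e-05 and 3.12e-05), and Rxra, the partner receptor of LXR, had 0.78 and 0.77 (adjusted p = 0.000101 and 0.000219). Apoc2, the cofactor of lipoprotein lipase, had -3.64 and -1.74 (adjusted p = 4.15e-05 and 0.00611), with means of 122.5 against 9.80 CPM in the RZ and 88.1 against 26.4 CPM in the IZ. Of the 8 genes tested of LXR and its other targets, 2 were higher and 4 lower in the RZ (75.0%). In the IZ 2 of them were higher and 1 lower (37.5%). Nr1h3, an LXR gene, had means of 37.1 CPM in recruited and 16.8 CPM in resident RZ macrophages, and 48.0 and 25.3 CPM in the IZ. Apoc2 shares 646 of 813 exon bases with Gm44805 and Pltp 495 of 2562 with Ctsa, and the counts of these pairs cannot be told apart there.

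Some markers of other cells also differed between the populations, where 32.0% of all genes passed in the RZ and 19.5% in the IZ. Of the 10 cardiomyocyte genes 9 were tested, and resident macrophages had the higher level of 7 in the RZ (77.8%) and of 6 in the IZ (66.7%). Their sum was 14.98 to 23.3 CPM in recruited and 50.1 to 117 CPM in CD45.2+ remote libraries, and 16.9 to 23.9 against 40.4 to 95.7 CPM in the IZ, with none at 0. The 8 fibroblast genes summed to 16.7 to 105.97 against 131 to 479 CPM and to 6.20 to 164 against 15.9 to 1173 CPM. None of these passed by edgeR, with 3 and 1 at an unadjusted p under 0.05, and both DESeq2 and limma-voom called 2 in the RZ and 0 in the IZ. Of 8 neutrophil genes 5 were tested, and 2 (40.0%) were lower in CD45.2+ cells in the RZ and 1 (20.0%) in the IZ. They summed to 221 to 326 against 76.0 to 83.4 CPM and to 214 to 292 against 87.4 to 118 CPM, with Ly6g at 0 in both CD45.2+ groups, Ngp at 0 in CD45.2+ IZ libraries and Camp at 0 in both CD45.1+ groups.

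The B-cell genes summed to at most 25.4 CPM and the T and NK genes to at most 3.88 CPM in any library. Ncr1 was at 0 outside the CD45.2+ IZ group. Of the B-cell genes 4 were tested, and 1 (25.0%) was higher in CD45.2+ cells in each zone. The 5 dendritic cell genes summed to at most 22.1 CPM, with 1 higher and 1 lower in the RZ (40.0%) and 1 higher in the IZ (20.0%). Endothelial, smooth muscle and red cell genes summed to at most 187.7, 43.8 and 111.4 CPM. None of these, nor of the T and NK genes, passed between populations by edgeR, DESeq2 or limma-voom, with 0 at an unadjusted p under 0.05. The part of these cells in the results above was not tested.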

How the data were processed

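RNA of 12 libraries was analysed from 1 table of raw counts for 55487 genes that the authors deposited. Per the methods and the submitters' notes, cDNA was made by SMART-Seq v4, HISAT2 2.2.1 placed reads on GRCm38.p6, and pairs were counted with featureCounts of Subread 2.0.1 for every gene they overlapped by at least 5 bases. Overlapping genes therefore share counts, and the stated options set no strand. Symbols came from GENCODE M21, which named 55141 genes, and promoters from RefSeq (GRCm38.p6). Positions and exons of genes were those deposited with the counts.

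Libraries held 33253340 to 63435529 counts. Genes were kept by filterByExpr (10 counts, 15 in all), which left 18773, and TMM factors were used. All 12 libraries entered 1 fit with a mean for each group in edgeR 4.0.16 (R 4.3.3), and the quasi-likelihood test was run for 5 comparisons, each adjusted by Benjamini-Hochberg. SE is the absolute log2 fold change over the square root of F. The fit was tested on simulated data. No 2 libraries held identical counts.

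Members and lists were chosen with earlier results of these data known. Values per library are given for the 8 members of smallest adjusted p in each comparison of populations and the 4 smallest per comparison of zones, among those that passed, and the 4 smallest of the wider list are named. Values of Apoe per library were added after they were seen. Alternatives were DESeq2 1.42.0, limma-voom (3.58.1), other scalings and filters, fewer libraries, the side of the second component, and leaving out each library. No set test was run.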

Additional observations from a re-analysis of the deposited data

How the results depend on the processing

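Under the 22 alternatives no member changed sign where either fit passed or both estimates exceeded the SE of the main fit. Other changes of sign, of estimates near 0, were not counted. Of the 23 calls 13 were kept under every alternative. Of 127 results of members that did not pass, 24 passed under some alternative. In the remote zone limma-voom called 12 members lower, as did the covariate for the side of the second component, and leaving out each library gave 5 to 11. All genes lower there ran from 1980 to 3802 on leaving out each library. In the infarct zone limma-voom called 7 members higher and 9 lower, total counts 3 lower, and leaving out each library gave 2 to 5 higher and 3 to 7 lower. All genes there ran from 1451 to 2498 higher and from 722 to 1858 lower on leaving out each library. Between zones DESeq2 called 1 member higher in CD45.1+ cells and 1 lower in CD45.2+ cells, and the covariate called 1 lower there. The 2 members higher in the infarct zone of CD45.2+ cells became 0 in the fit of 6 libraries, 4 without S104 to S107, and 1 to 7 on leaving out each library. All genes higher there numbered 334 without S104 to S107 and ran from 116 to 862 on leaving out each library. For the difference of the zone effects DESeq2 called 1.

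Scaling by total counts moved the median of all genes from 0.04 to 0.13 in the remote and to 0.19 in the infarct zone, and upper-quartile factors to 0.14 and 0.11. By total counts the share of calls higher in CD45.2+ cells among members was 62.5% instead of 44.4% in the infarct zone, and among all genes 78.4% instead of 61.3%, and by upper-quartile factors 50.0% and 67.1%. By voom all genes called in the infarct zone were 3571 higher and 3104 lower, against 2247 and 1419, and total counts called 799 lower and the covariate 2268 lower. Between zones in CD45.2+ cells 275 higher and 55 lower became 704 and 450 by DESeq2, 766 and 355 with the covariate, 418 and 256 by voom, and 24 and 2 in the fit of 6 libraries. The lower count was 83 by upper-quartile factors, 35 by total counts and 84 at 1 CPM. In CD45.1+ cells 0 became 38 higher and 152 lower by DESeq2, and the difference of the zone effects 139 and 24. With 3 libraries per group, a p that misses the threshold does not show that levels were equal. No paired analysis was possible because the labels give no number that groups share. A block on sets of consecutive library numbers would infer the pairing from their order and was not run.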
